A study of Mus musculus with 8 samples.

Results

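The fibrillins, fibulins and adhesive glycoproteins examined here are secreted matrix proteins of the developing valve: Fn1, Tnc, Fbn2, Fbln1, Fbln2, Fbln5, Eln, Postn and Sparc. They were taken by gene symbol, as every probe set annotated with that single symbol. This gave 19 probe sets for 9 of the 10 genes listed, out of 18194 genes with such a probe set on the array. The remaining gene, Fbn1, is not analysed here.

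The samples were atrioventricular canals of mouse embryos, the heart segment in which the endocardial cushions form. Each of 8 RNA samples was a pool of 10 dissected canals, in a mixed C57BL6/129 background. The 4 control pools were homozygous for floxed Gata4 and are not labelled as carrying Cre. The 4 mutant pools were homozygous for the same floxed allele and carried T2Cre, a Cre transgene driven by the Tie2 promoter, so that Gata4 is lost from endothelial cells and the cushion mesenchyme they give rise to. Deletion of Gata4 and presence of Cre therefore came together, heart muscle was not targeted, and no embryonic stage is stated. Nothing says that pools of one group came from separate litters, so the spread between arrays may in part be technical.

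Cushions begin as swellings of matrix between endocardium and muscle and are then filled by mesenchymal cells. Fibronectin is an early matrix protein on which cells migrate, and tenascin-C and periostin modulate adhesion in remodelling matrix and are typical of cushion mesenchyme. Fibrillins polymerise into microfibrils, elastin is deposited on these, and fibulins link elastin, fibrillins, fibronectin and the proteoglycan versican. SPARC is a collagen-binding protein that regulates how collagen is laid down.

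The comparison of mutant with control pools asks which of these transcripts differ in canals whose endothelial lineage lacks Gata4. Values are log2(signal + 16) after quantile normalization, where signal is the brightness of a probe set, so changes of dim probe sets are understated. Of 27022 probe sets tested with limma across the whole array, 12, or 0.0444%, passed a Benjamini-Hochberg adjusted p of 0.05. None of the 13 tested probe sets of the matrix glycoproteins, from 8 genes, was among them. On simulated data this fit recovered 28% of changes of 1 log2 unit, so not passing does not show that a change is absent. Of these 13, 3 had an unadjusted p under 0.05 with a lower value in mutants, where 5.33% of all probe sets did, and 1 had one with a higher value, where 7.31% did. Tnc, Fn1 and Fbn2 each had 1 probe set on which all 4 mutant arrays lay below all 4 control arrays, and Fbln1 had 1 on which all lay above. Over all tested probe sets the groups were apart in this way for 3.19% on the lower side and 4.44% on the higher side. The median change over the brightest tested probe set of each of the 8 genes was -0.20, with 6 negative. Over all tested probe sets the median was 0.03, and 46.2% had a negative change.

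Controls 2 and 3 stood apart from the other 6 arrays. Their median signal was 268 and 254, against 71.5 to 125, and their bacterial control probe sets, which measure background, had medians of 158 and 135, against 4.0 to 39.3. They had the lowest weights in the fit, 0.302 and 0.35. Markers were set against the tissue label. The 4 genes of atrioventricular canal muscle and the 10 of cushion mesenchyme all passed the filter on dim probe sets. That filter uses the mean over all 8 arrays. Being above background means a signal higher than the 90th percentile of that array's bacterial controls. Among these markers Scx was above background on 3 of 4 control and 0 of 4 mutant arrays. Foxc1 and Tbx2 were above it on 2 of 4 controls and Msx2 on 3, each on 4 of 4 mutants. The other markers of both lists were above it on all 8 arrays.

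The promoter sequences available for 6 of the 9 genes, in 10 windows of 250 bases before a RefSeq start in GRCm38.p6, are shown where they bear on the loss of a GATA factor. Forms of the motif that GATA factors bind were searched on both strands: the letters AGATAA or the letters AGATAG, and also the letters TGATAA or the letters TGATAG. They occur in 26.5% of 32851 such windows over all genes and in 1 of the 10, that of Fbln2. Tnc, with the largest fitted change of the 13 probe sets, has no match before either of its starts. The 250 bases before its outer start (chr4:64047016-64047265, minus strand) read as follows, with no capitals because no motif was found.

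Tnc, outer start: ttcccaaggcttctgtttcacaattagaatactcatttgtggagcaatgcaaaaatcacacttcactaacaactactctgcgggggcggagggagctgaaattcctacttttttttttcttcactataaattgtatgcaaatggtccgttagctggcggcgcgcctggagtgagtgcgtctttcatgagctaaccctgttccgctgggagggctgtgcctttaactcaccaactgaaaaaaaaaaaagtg

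A second motif, TATATAA, was looked for after these sequences had been seen, on both strands. It occurs in 3.04% of all windows, and in 2 of the 10, just before the inner start of Tnc and the inner start of Postn. Of these windows only 30 bases around the match are given, with the match in capitals: Tnc at chr4:64046948-64046977 on the minus strand, Postn at chr3:54361067-54361096 on the plus strand, and the GATA match of Fbln2 at chr6:91212535-91212564 on the plus strand, where the capitals are TGATAG read on the other strand.

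Tnc, inner start: gaaggagctcccTATATAAgcctgccaaag

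Postn, inner start: acagcccagagcTATATAAactcagctctc

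Fbln2: gggtacctctggCTATCAcagggtgctggg

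A match of letters is a description of the window and shows no binding.

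Among the adhesive glycoproteins, Tnc had the largest fitted change. Tenascin-C is a large oligomeric protein that weakens the adhesion of cells to fibronectin. The main probe set read 9.39, 9.66, 9.09 and 9.26 on control arrays 1 to 4, and 8.55, 8.67, 8.65 and 8.28 on mutant arrays 1 to 4, on the log2 scale. Every mutant array lay below every control array. Group means were 9.35 ± 0.24 and 8.54 ± 0.18 (SD, n = 4 each). The fitted change was -0.83 (SE 0.19, 95% interval -1.24 to -0.43), a ratio of 0.562, with an unadjusted p of 0.000422 and a limma adjusted p of 0.154. In the deposited signals the gap was also visible, with 603 to 849 in controls and 251 to 370 in mutants. On the authors' scaling, without quantile normalization, the change was -1.04 and passed (adjusted p = 0.0386), and it passed without control 3 (-0.92, adjusted p = 0.0436). Without controls 2 and 3 it was again -0.92 and did not pass (adjusted p = 0.441). With each array centred on its median it was 0.21, which lay 0.93 below the median change of all probe sets under that setting, 1.13. The other Tnc probe set was removed by the filter: it exceeded background on 0 control and 3 mutant arrays, with deposited signals of 23.9 to 74.4 and 25.9 to 74.1.

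Fn1 encodes fibronectin, which cells bind through integrins. On its brightest probe set the control arrays 1 to 4 read 12.73, 12.76, 13 and 12.88 on the log2 scale, and the mutant arrays 12.29, 12.44, 12.62 and 12.35. The groups did not overlap, although mutant 3 came close to control 1. The change was -0.35 (SE 0.09, 95% interval -0.54 to -0.17), a ratio of 0.782, with an unadjusted p of 0.000888 and a limma adjusted p of 0.195. The deposited signals of the groups overlapped, at 5817 to 7892 in controls and 5187 to 6705 in mutants, and the change on the authors' scaling was -0.25 (adjusted p = 0.173). It passed without control 1 (-0.45, adjusted p = 0.0349) and without mutant 3 (-0.46, adjusted p = 0.00751). It did not pass without controls 2 and 3 (-0.35, adjusted p = 0.6) or without mutant 4 (-0.32, adjusted p = 0.324). The second Fn1 probe set ran from 9.02 to 9.92 in controls and from 9.29 to 9.73 in mutants, with the mutant values inside the control range. Its change was -0.13 (SE 0.18, 95% interval -0.51 to 0.26, adjusted p = 0.798). The difference in change between both Fn1 probe sets was -0.29, with an exact permutation p of 0.0286, the smallest that 4 against 4 arrays allow, and 0.143 after adjustment over the 5 pairs of probe sets compared within a gene. On the authors' scaling this difference was 0.02.

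**Figure D1:**
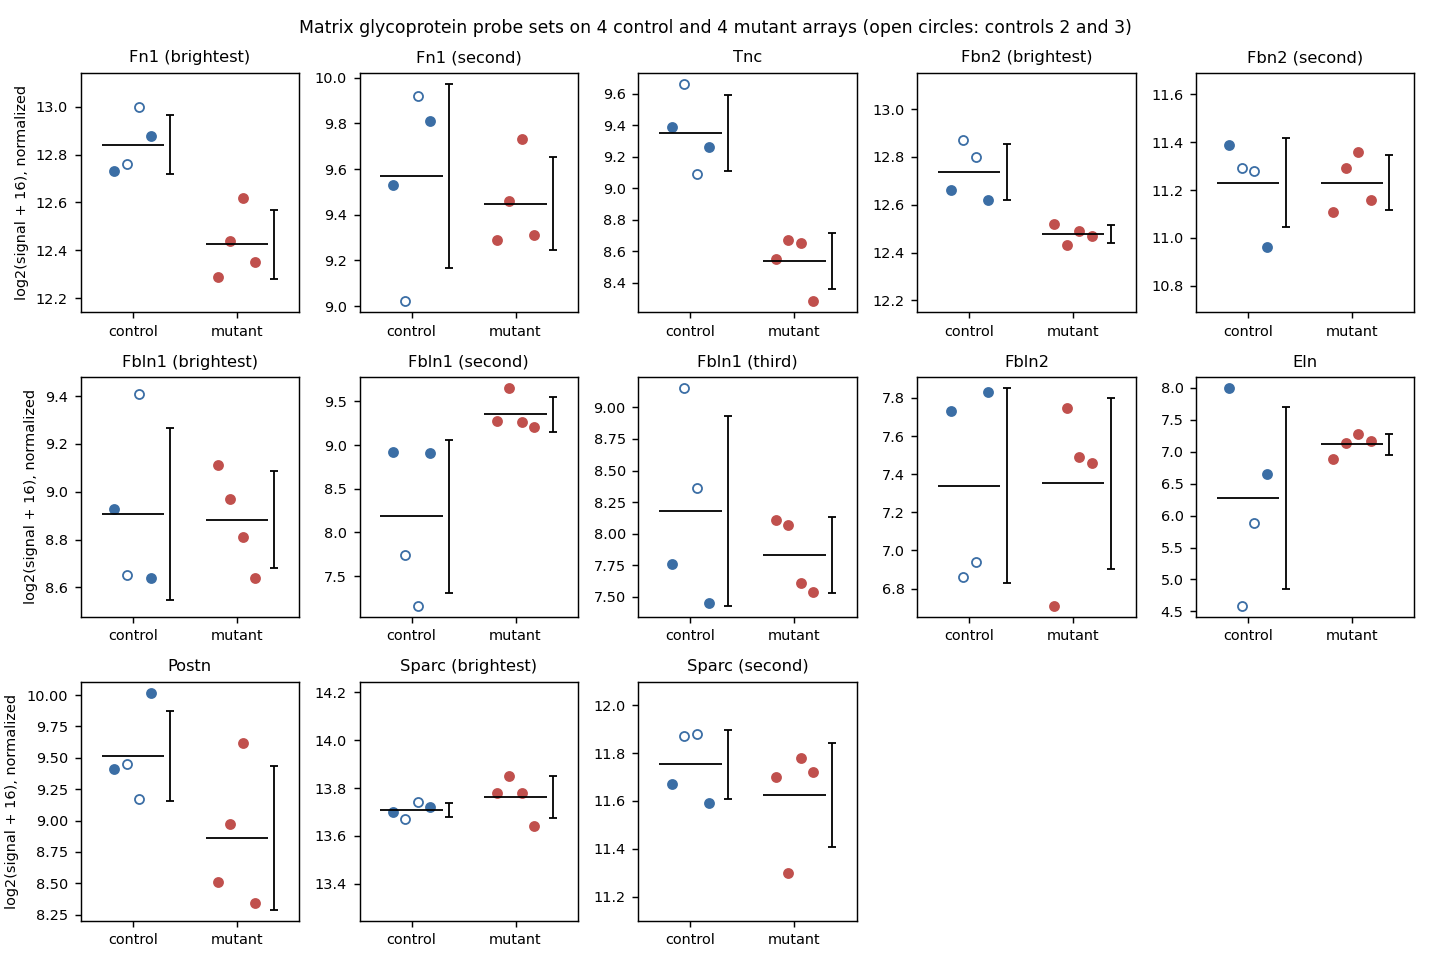
Normalized log2(signal + 16) of the 13 tested probe sets on the 4 control and 4 mutant arrays, with the group mean as a line, its SD (n = 4) as a bar, and controls 2 and 3 as open circles. The groups are apart for Tnc and for the brightest Fn1 and Fbn2 probe sets, lower in mutants, and for the second Fbln1 probe set, higher in mutants. The vertical ranges differ between panels.

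Postn encodes periostin, a fasciclin-domain protein secreted by cushion mesenchyme and fibroblasts that promotes collagen maturation. Its single probe set read 9.41, 9.45, 9.17 and 10.02 on control arrays 1 to 4, and 8.51, 8.97, 9.62 and 8.34 on mutant arrays 1 to 4. Mutant 3 stood among the controls, above 3 of the 4, while the other 3 mutant arrays lay below all of them. The change was -0.65 (SE 0.35, 95% interval -1.40 to 0.11, adjusted p = 0.458), so the interval of the percent change runs from -62.2% to 7.86%. Leaving out 1 array at a time gave changes of -1.03 to -0.39, with -1.03 without mutant 3 (adjusted p = 0.0894) and -0.39 without control 4 or without mutant 4. None of these passed.

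Sparc, which encodes osteonectin, was the steadiest of the set. On its brightest probe set the log2 values were 13.70, 13.67, 13.74 and 13.72 in controls and 13.78, 13.85, 13.78 and 13.64 in mutants. The groups overlapped within a range of 13.64 to 13.85. The change was 0.04 (SE 0.05, 95% interval -0.08 to 0.15, adjusted p = 0.801), or -5.07% to 10.7%. Its second probe set had a change of 0.00 (SE 0.10, 95% interval -0.22 to 0.21), with 11.59 to 11.88 in controls and 11.30 to 11.78 in mutants. The dimmest Sparc probe set exceeded background on 1 array of each group and was left untested. With median-centred arrays both tested Sparc probe sets lay above the median of all probe sets, by 0.54 and 0.38.

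Of the microfibril and elastic fibre proteins, Fbn2 encodes the fibrillin that predominates in embryonic microfibrils. Its brightest probe set gave 12.66, 12.87, 12.80 and 12.62 in controls 1 to 4 and 12.52, 12.43, 12.49 and 12.47 in mutants 1 to 4. The mutant arrays spanned 0.09 and the control arrays 0.26, with no overlap. The change was -0.20 (SE 0.06, 95% interval -0.33 to -0.07, unadjusted p = 0.00405, limma adjusted p = 0.245), a ratio of 0.869. On the deposited scale the nearest arrays were almost level, with a lowest control signal of 6144 and a highest mutant signal of 6137, and the change on the authors' scaling was -0.10 (adjusted p = 0.501). The change was -0.31 both without control 1 and without control 4, and passed in each case (adjusted p = 0.0383 and 0.0353). It was -0.16 and did not pass without controls 2 and 3 (adjusted p = 0.778). With median-centred arrays it lay 0.25 above the median of all probe sets. The second Fbn2 probe set ran from 10.96 to 11.39 in controls and from 11.11 to 11.36 in mutants, and its change was 0.01 (SE 0.11, 95% interval -0.23 to 0.24). The difference in change between both Fbn2 probe sets was -0.26 (exact permutation p = 0.0857, 0.143 adjusted over the 5 pairs).

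Eln encodes tropoelastin, the soluble precursor of elastic fibres. The tested probe set was above background on 2 of 4 control and 4 of 4 mutant arrays. Its log2 values were 7.99, 4.59, 5.89 and 6.65 in controls and 6.89, 7.13, 7.27 and 7.17 in mutants, so the controls spread over 3.40 on the log2 scale and the mutants over 0.39. The change of 0.18 (SE 0.51, 95% interval -0.90 to 1.26, adjusted p = 0.908) was far inside the spread of the controls, and was -0.46 on the authors' scaling and -0.20 without controls 2 and 3. The other Eln probe set was above background on 1 array only.

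The fibulins gave no shared direction. Fbln1, which encodes fibulin-1, a partner of fibronectin and versican and a cofactor of versican cleavage, had 3 tested probe sets. The brightest had log2 values of 8.93, 8.65, 9.41 and 8.64 in controls and 9.11, 8.97, 8.81 and 8.64 in mutants, with a change of -0.05 (SE 0.20, 95% interval -0.48 to 0.37). The second had 8.92, 7.74, 7.16 and 8.91 in controls and 9.28, 9.65, 9.26 and 9.21 in mutants. All 4 mutant arrays were above all controls on this second probe set, and controls 2 and 3 were far below controls 1 and 4. Its change was 0.72 (SE 0.26, 95% interval 0.16 to 1.27, unadjusted p = 0.0139, limma adjusted p = 0.312). Without controls 2 and 3 it was 0.42 (adjusted p = 0.774), and without control 1 or control 4, which leaves these arrays more weight, it was 1.62 and 1.46 (adjusted p = 0.0154 and 0.0209). The deposited signals were also apart, at 267 to 450 and 556 to 697. The dimmest of the 3 ran from 7.45 to 9.15 in controls, highest on controls 2 and 3, and from 7.54 to 8.11 in mutants, with a change of -0.16 (SE 0.29). The brightest and the second Fbln1 probe sets differed in change by -1.20 (exact permutation p = 0.0571, 0.143 adjusted over the 5 pairs). Without controls 2 and 3 this difference was -0.35. Since the smallest p the test allows is 0.0286, a single pair could not pass after adjustment over 5, whatever its size, and these tests do not settle whether probe sets of a gene differ. Which transcript forms each of them covers is not stated.

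Fbln2 encodes fibulin-2, which is produced by cushion mesenchyme and endocardium during the transition from one to the other. Its tested probe set read 7.73, 6.86, 6.94 and 7.83 on control arrays 1 to 4, and 6.71, 7.75, 7.49 and 7.46 on mutant arrays 1 to 4, on the log2 scale, and the groups overlapped fully. The change was -0.19 (SE 0.34, 95% interval -0.92 to 0.53, adjusted p = 0.841). The deposited signals gave another picture, with 190, 232, 234 and 172 in controls and 86.4, 137, 118 and 112 in mutants, all mutants below all controls. The change was -0.72 on the authors' scaling (adjusted p = 0.219) and -0.44 without controls 2 and 3 (adjusted p = 0.872). It was above background on controls 1 and 4 and on 4 of 4 mutant arrays, and the signals on controls 2 and 3 were below the background threshold of those arrays, 316 and 270. The other Fbln2 probe set was above background on 0 control and 2 mutant arrays. Fbln5, which encodes fibulin-5, an elastin-binding protein needed to organise elastic fibres, was not above background on any of the 8 arrays with either of its 2 probe sets, and no change is given for it.

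**Figure D2:**
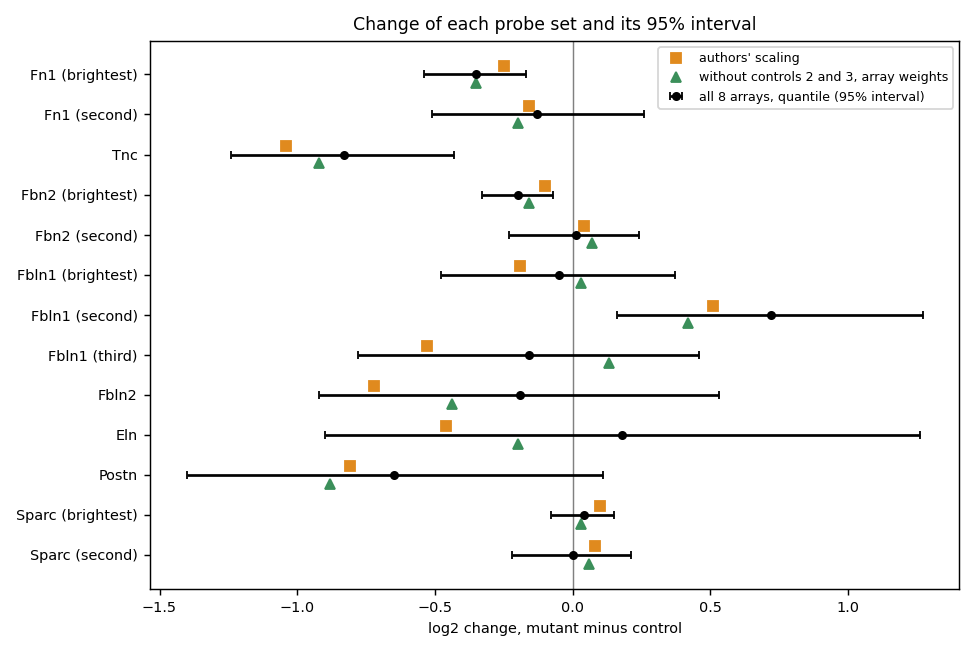
Log2 change, mutant minus control, of the 13 tested probe sets with its 95% interval (black), beside the change on the authors' scaling (squares) and without controls 2 and 3 (triangles). The intervals of Tnc and of the brightest Fn1 and Fbn2 probe sets lie below 0 and that of the second Fbln1 probe set above 0, while Eln, with an interval of -0.90 to 1.26, lies on different sides of 0 under different settings.

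Which probe sets had groups apart depended in part on the scaling. On the authors' scaling 3 probe sets were again apart with mutants lower, but these were Tnc, Fbn2 and Fbln2, and Fn1 was not among them, where 5.51% of all tested probe sets were apart in that direction. Without controls 2 and 3 the same 3 as in the full set, Tnc, Fn1 and Fbn2, were apart, against 8.03% of all tested probe sets, and the second Fbln1 probe set was apart on the higher side, against 8.36%. With median-centred arrays 0 of the 13 were apart on the lower side, against 1.2% of all tested probe sets, and the brightest Fbln1 probe set was apart on the higher side, against 4.27%. Without control 1 or control 4, where some of these probe sets passed, 6.22% and 6.15% of all probe sets passed too.

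**Figure D3:**
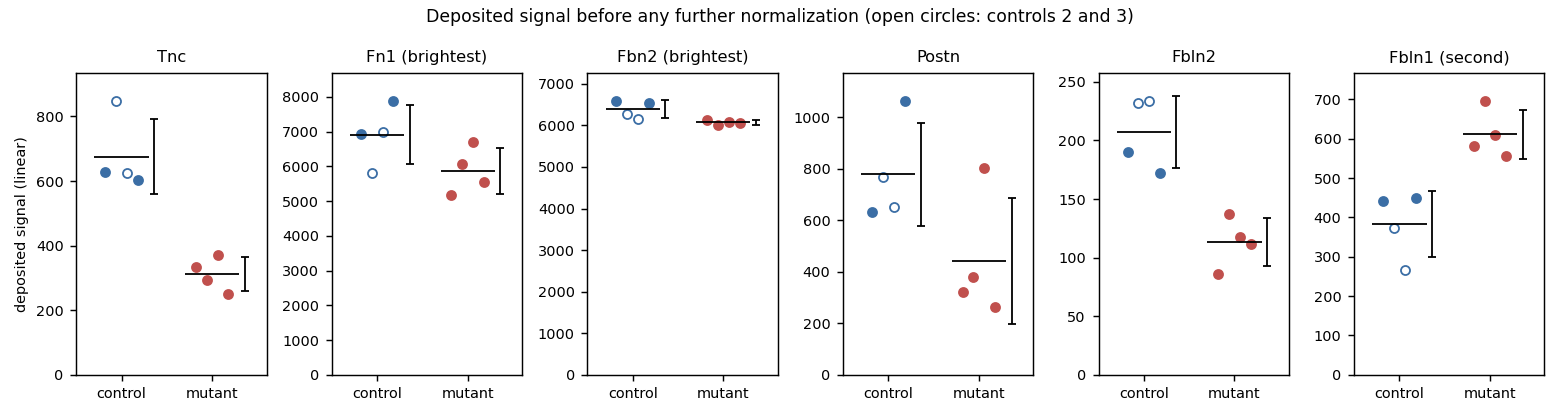
Deposited linear signal of 6 probe sets on each array, before any further normalization, with the group mean as a line and its SD (n = 4) as a bar, and controls 2 and 3 as open circles. Tnc and Fbln2 are lower on all 4 mutant arrays, Fn1 and Postn overlap, Fbn2 is separated by only 6144 against 6137, and Fbln1 is higher on all 4 mutant arrays.

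Genes of related matrix proteins, of receptors and their ligands, and of binding partners and matrix enzymes were followed as 4 partner lists. Each gene was taken by its brightest tested probe set, and 1 of the 85 tested genes passed. Of 18 tested genes of microfibrils and elastic fibres, 11 had positive and 7 negative changes (median 0.11), and none passed. The smallest unadjusted p values belonged to Mmrn2, which encodes multimerin-2, an endothelial matrix protein (0.88, SE 0.26, adjusted p = 0.253), to the latent TGF-beta binding protein family member Ltbp2 (-1.43, SE 0.56, adjusted p = 0.335) and to hemicentin-1, Hmcn1, an adhesion protein related to the fibulins (0.97, SE 0.38, adjusted p = 0.338). Ltbp2 was above background on 3 control and 2 mutant arrays. Its deposited signals were 333 and 422 on controls 2 and 3, 136 and 42 on controls 1 and 4, and 2.66 to 84.7 in mutants. Without controls 2 and 3 the filter on dim probe sets removed Ltbp2. Hmcn1 was above background on 2 of 4 control and 4 of 4 mutant arrays. Its groups overlapped, with 5.29 to 8.06 in controls and 7.57 to 7.91 in mutants. Mmrn2 had 10.33, 10.63, 8.32 and 9.52 in controls and 10.76, 10.93, 10.63 and 10.84 in mutants, so that the groups were just apart, with control 3 lowest. Its next probe set had a change of 0.84 (SE 0.21), while the dimmer ones had changes of 0.32 and -0.08.

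Of 22 tested genes of other adhesive and matricellular glycoproteins, 12 had positive and 10 negative changes (median 0.01), and none passed. Thbs4, which encodes thrombospondin-4, had 11.47, 10.89, 10.77 and 11.41 in controls and 11.76, 11.74, 11.71 and 11.53 in mutants, with mutants above all controls (0.35, SE 0.12, adjusted p = 0.281). Without control 1 and without control 4 its change was 0.72 and 0.67 and passed, while without controls 2 and 3 it was 0.22 (adjusted p = 0.778) and with the RNA integrity covariate 0.19 (adjusted p = 0.62). The laminin beta-2 chain gene Lamb2 had a change of 1.01 (SE 0.38, adjusted p = 0.326) with a control value as low as 4.76 on control 2. Lamb2 was above background on 2 of 4 control and 4 of 4 mutant arrays. Its change too passed without control 1 (1.93) and without control 4 (1.95), while without controls 2 and 3 it was 0.64 (adjusted p = 0.74). The proteoglycan gene Spock1, a relative of Sparc, had a change of -1.40 (SE 0.54, adjusted p = 0.335), and -2.40 without control 4, where it passed. This probe set was above background on 3 control and 2 mutant arrays. Its deposited signals were 608 and 517 on controls 2 and 3, 161 and 40.1 on controls 1 and 4, and 6.49 to 92.5 in mutants. Without controls 2 and 3 the filter on dim probe sets removed it. The other Spock1 probe set had a change of -0.96 (SE 0.66, adjusted p = 0.555).

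Of 22 tested genes of the receptor list, among them integrin subunits and syndecans, 13 had positive and 9 negative changes (median 0.06), and none passed. The integrin ligand Vcam1, an adhesion molecule of epicardium and muscle, had a change of 0.32 (SE 0.10, adjusted p = 0.260), with 11.59 to 11.97 in controls and 11.97 to 12.36 in mutants. Its other probe sets had changes of 0.47 (SE 0.12) and 1.17 (SE 0.35) and did not pass. The syndecan gene Sdc4, a fibronectin co-receptor, had a change of 0.27 (SE 0.12), and Anxa2, an annexin at the cell surface to which tenascin-C binds, one of 0.15 (SE 0.08), with -0.64 (SE 0.36) on its other probe set.

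Of 23 tested genes of binding partners and processing enzymes, 1 fell and 0 rose, with 10 positive and 13 negative changes (median -0.08). Sulf1, a sulfatase of the cell surface and matrix that trims heparan sulfate, had 12.75, 12.53, 12.85 and 12.90 in controls and 12.23, 12.32, 12.40 and 12.25 in mutants, with no overlap. It fell by 0.47 (SE 0.07, adjusted p = 0.0183), and its other probe set had a change of -0.64 (SE 0.19, adjusted p = 0.245). The call was lost without controls 2 and 3 (-0.52, adjusted p = 0.0941), without mutant 1 (-0.45, adjusted p = 0.0551), without array weights (-0.46, adjusted p = 0.0699), on the authors' scaling (-0.36, adjusted p = 0.0899), with the RNA integrity covariate (-0.46, adjusted p = 0.104) and with eBayes lacking trend and robust (-0.47, adjusted p = 0.35).

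**Figure D4:**
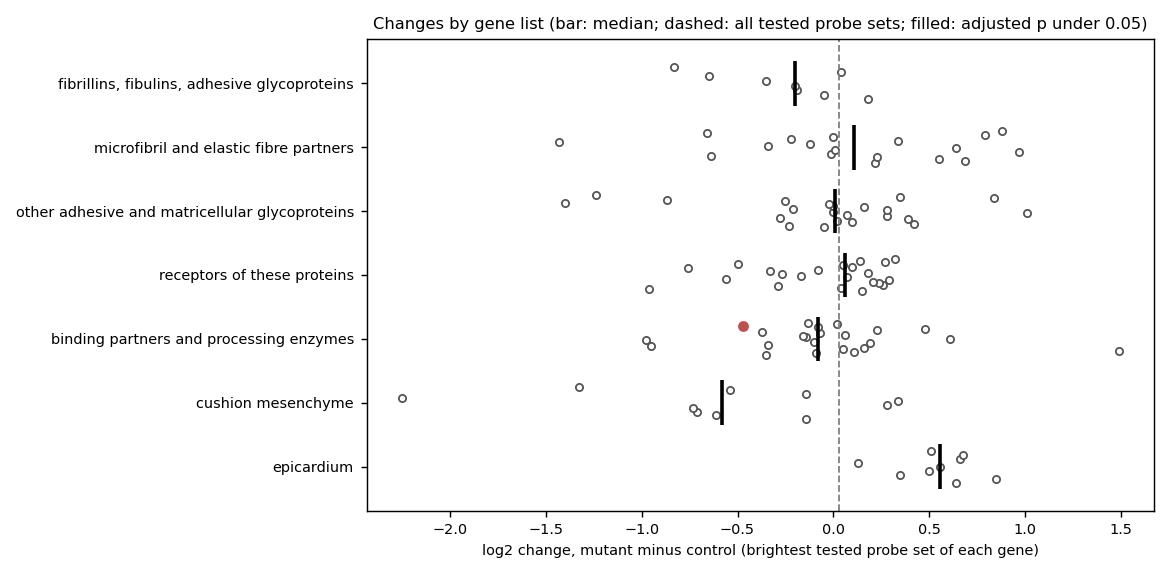
Log2 change, mutant minus control, of each gene by its brightest tested probe set (1 circle per gene; filled, adjusted p under 0.05) in 7 lists, with the median of each list as a bar and that of all tested probe sets, 0.03, as a dashed line. The 8 glycoprotein genes have a median of -0.20, the cushion mesenchyme markers one of -0.58 and the epicardial markers one of 0.56, and the partner lists lie between -0.08 and 0.11.

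Cell type markers were read beside the glycoproteins. Of the 10 cushion mesenchyme markers, 8 had negative changes (median -0.58), 0 passed singly, and their summed normalized signal ran from 18300 to 20400 in controls and from 10300 to 14800 in mutants, without overlap. Of the 9 tested epicardial markers all had positive changes (median 0.56), 0 passed, and the summed signal of the 10 on the array was 6130 to 7410 in controls and 8680 to 12600 in mutants. The 10 cardiomyocyte markers all had positive changes (median 0.12), with summed signals of 90600 to 96200 and 99000 to 102000. Among 11 endothelial markers, of which 10 were tested, 6 had positive and 4 negative changes (median 0.15), and the sums were 14000 to 14700 in controls and 12200 to 12900 in mutants. Tek was the 1 that passed, and it fell. Without Tek the endothelial sums overlapped, at 8240 to 8750 in controls and 8560 to 9210 in mutants. The smooth muscle markers had a median of 0.12 over 4 tested genes. Liver markers, listed because hepatocytes secrete fibronectin, had a summed signal of 567 to 1500 in controls and 415 to 2870 in mutants, with Fgb not above background on any array. The value of 2870 was that of mutant 1 alone, the other mutants having 415 to 728. The value of 1500 was that of control 4, the other controls having 567 to 697. The change of the brightest Fn1 probe set was -0.35 with all 8 arrays, -0.31 without mutant 1 and -0.40 without control 4. That of Tnc was -0.83 in each of these settings. Neither gene passed in any of these settings, and a part of liver tissue in their values was not tested. The macrophage sum was 444 to 541 and 532 to 825, and that of the neural markers 240 to 597 and 683 to 756. Of the 3 tested neural markers, 1 had a positive and 2 had negative changes (median -0.11), and 0 passed. The positive change was that of Stmn2 (1.48). The erythroid sums, 36800 to 55100 and 36800 to 45900, and those of foregut epithelium, 332 to 622 and 216 to 512, overlapped. The part of any of these cell types in the values of Tnc, Fn1, Fbn2 and Postn was not tested. In pools of whole canals, fewer cells of a type and less RNA per cell cannot be told apart.

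The log2 ratio of 3 prime to 5 prime signal of Actb, a sign of RNA integrity, was 1.14 to 1.40 in controls and 1.31 to 1.51 in mutants. That of Gapdh was 0.36 to 0.48 in controls and 0.31 to 0.42 in mutants. The part of RNA integrity in these values was tested only by adding the mean of both ratios as a covariate. With it the change was -0.89 for Tnc (adjusted p = 0.27) and -0.69 for Postn (adjusted p = 0.59). For the brightest Fn1 and Fbn2 probe sets it was -0.30 and -0.19 (adjusted p = 0.369 and 0.396). For the second Fbln1 probe set it was 0.44 (adjusted p = 0.637). Values whose sign changed with the covariate are given with the alternatives.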

How the data were processed

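Per the design text, 50 ng of RNA from each of 8 pools went through isothermal amplification (NuGen) before hybridisation on an Affymetrix whole-genome mouse array. The deposited values are linear intensities, for which the submitters' processing notes name MAS5 without a version. All arrays had the same mean signal as deposited. Depth does not apply to arrays, and their number, 4 per group, limits the precision.

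From these, log2(signal + 16) was quantile normalized, since trimmed means (2%) differed by 1.12 times, over a limit of 1.1. The 64 array controls and the dimmest 40% of probe sets were left out. Genes were named from the platform annotation: 34958 of 45101 probe sets have 1 symbol, 932 several and 9211 none. The groups were compared with limma 3.58.1 in R 4.3.3 (arrayWeights, eBayes with trend and robust, two-sided, Benjamini-Hochberg over 27022 probe sets, threshold 0.05). Probe sets of one gene were compared with a two-sided exact permutation test over 70 splits of the arrays. Background used 27 bacterial control probe sets. The design text mentions 2 controls excluded for noise without naming them, and all 4 control arrays present were used.

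The members and lists were chosen with earlier results of these data known. All probe sets of the members are accounted for, and of each partner list the text names the genes that passed or otherwise the 3 with the smallest p; Tek was named because its marker list turned on it. Of 124 partner genes, 117 had a probe set and 85 were tested. The fit was tested on simulated data. Promoter sequences are from RefSeq, GRCm38.p6. Alternatives covered arrays left out, scaling, pseudocount, filter, weights, the block and an RNA integrity covariate.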

Additional observations from a re-analysis of the deposited data

Results flagged for a closer look

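The second Fbln1 probe set had 1 mutant array apart from the rest of its group. Mutant 2 was at 9.65 and the other mutant arrays lay between 9.21 and 9.28, a gap of 0.859 of the group's range, which is above Dixon's critical value for 4 samples. All 38 groups of 4 arrays, from 19 probe sets, were looked at and 1 exceeded it, where chance gives about 1 in 20. Mutant 2 also had the highest deposited signal of this probe set, 697.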

How the results depend on the processing

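The number of arrays, the scaling and the background of controls 2 and 3 limit these values. Apart from median centring, given below, the sign changed between settings for the tested probe sets of Eln and Fbln2. It also changed for the brightest and the dimmest Fbln1 probe sets and for the second ones of Fbn2 and Sparc. The causes were not tested. Over all probe sets, 7 rose and 5 fell. Leaving out 1 array gave 3 to 1417 higher and 2 to 371 lower. Without controls 2 and 3, with or without array weights, there were 1 and 1. The counts, higher then lower, were 26 and 34 with a replicate block, 41 and 22 on the authors' scaling, 17322 and 1832 with median-centred arrays, 22 and 12 with a pseudocount of 64, 14 and 12 with no filter, 2 and 2 with the integrity covariate, and 0 and 0 with eBayes lacking trend and robust; without array weights 10 were lower. Of the glycoprotein probe sets, 0 to 1 were called higher and 0 to 2 lower when 1 array was left out, 1 lower with the replicate block (Fn1, -0.45, adjusted p = 0.00462) and on the authors' scaling, and 9 higher with median-centred arrays, where the median of all probe sets was 1.13 and none of the 13 was apart on the lower side (0). Among partner genes, where 1 was lower, leaving out 1 array gave 0 to 4 higher and 0 to 3 lower; the block gave 2 lower, median-centred arrays 61 higher and 5 lower, and 0 were lower without controls 2 and 3, without array weights, on the authors' scaling, with the covariate and with plain eBayes. With median-centred arrays the sign turned for Tnc (0.21), Fn1 (1.24 and 1.12), Fbn2 (1.38), Fbln1 (0.74 for the brightest), Fbln2 (0.52), Postn (0.53), the second Sparc probe set (1.52) and Sulf1 (1.28). The sign also turned for the second Fbn2 probe set (0.00 without array weights, with the block and with no filter, -0.02 with the covariate), for Fbln1 without controls 2 and 3 (brightest 0.03 with weights and 0.11 without, dimmest 0.13 and 0.25), for Fbln2 without weights (0.02), for Eln (-0.20 and -0.25 without controls 2 and 3, -0.46 on the authors' scaling, -0.32 with the covariate) and for the second Sparc probe set (0.06 without controls 2 and 3, 0.08 on the authors' scaling). Leaving out 1 array gave -0.07 to 0.04 for the second Fbn2, -0.21 to 0.05 for the brightest and -0.73 to 0.01 for the dimmest Fbln1, -0.33 to 0.30 for Fbln2, -0.35 to 1.52 for Eln and -0.14 to 0.05 for the second Sparc probe set. Differences between probe sets turned for Fbln1, brightest against dimmest, without controls 2 and 3 (-0.13), and for Fn1 on the authors' scaling and with median-centred arrays (0.02). Same-numbered control and mutant arrays correlated by -0.11, 0.01, -0.13 and 0.17 in their deviations from group means, so the replicate numbers used for the block were not taken as pairs. The filter on dim probe sets removed Spock1 and Ltbp2 without controls 2 and 3, and Ltbp2 also without control 3, so no value is given there.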
